A study of Homo sapiens with 18 samples.

Results

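The genes of cholesterol and fatty acid synthesis that sterol regulatory element-binding proteins (SREBPs) are known to drive were followed through treatment with IACS-010759 (IACS), an inhibitor of complex I of the respiratory chain. 32 genes were listed by name, and those whose TPM (a level scaled to transcript length and library total) averaged 1 or more in the 18 libraries were kept. This left 31 of the 45372 gene symbols in the table. 18 belong to the sterol branch, with 7 steps up to farnesyl pyrophosphate and 11 from squalene onward, 7 to the fatty acid branch, and 6 are control genes or the sterol carrier STARD4. *ELOVL6*, which elongates palmitate, did not reach the minimum. It stood at 1.66, 1.92 and 0.966 TPM in the MV4-11 DMSO libraries and at 0.0315, 0 and 0.0121 TPM in those of THP1.

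RNA was sequenced from MV4-11 and THP1 (THP-1 in the labels), cell lines of acute myeloid leukemia, each with a rearranged *KMT2A*. Each line received DMSO, the vehicle, or IACS at 50 nM. The IACS cells were taken after 8 h and after 24 h, and every group had 3 libraries. The same 3 DMSO libraries of a line were the control at both times, and the sources used here do not say at which time DMSO cells were taken. Each line is 1 established culture, so a difference between the lines is a difference between 2 cultures.

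Cells build cholesterol from acetyl-CoA through mevalonate, isoprenoids and squalene, and build fatty acids from acetyl-CoA through malonyl-CoA. Citrate exported from mitochondria is a main source of the acetyl-CoA. SREBP precursors sit in the membrane of the endoplasmic reticulum bound to SCAP. When membrane sterols are scarce, SCAP escorts them to the Golgi, where proteases release the part that enters the nucleus and activates transcription. When sterols are plentiful, INSIG proteins hold SCAP back. *SREBF2* encodes the SREBP that is known mainly for sterol genes and *SREBF1* the ones known more for fatty acid genes. *INSIG1* is itself an SREBP target and is often read as a gauge of SREBP activity.

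SREBPs bind a sterol regulatory element (SRE) in promoters and are known to act with factors at nearby CCAAT and GC boxes. RefSeq promoters on GRCh38.p14, from 250 bases before to 50 bases after the start of the gene, matched 27 of the 31 members by symbol. 5 motifs were searched on both strands, and no motif contains another. CCAAT was found in 18 of the 27 promoters (66.7%), against 34.6% of all 35116 promoters. The GC box GGGCGG was found in 25 (92.6%), against 45.0% of all promoters. The set of all promoters has repeat entries for some genes and was not limited to expressed genes, whereas members were, each with 1 promoter. The E-box CACGTG was found in 4 (14.8%, against 7.26%), the element TGATGNAA of amino acid response genes in 0 (against 3.62%), and the SRE letters TCACNCCAC in 1, *SREBF2* (3.7%, against 1.13%). The promoters of members whose 24 h libraries all lay above the 8 h libraries in THP1 held CCAAT in 10 of 15, and those of the other members in 8 of 12. The 4 stretches printed here, all on the plus strand, precede *SREBF2*, shown because its promoter held the SRE letters, and *INSIG1*, *SCD* and *MSMO1*, which rose between 8 h and 24 h in THP1. Each runs 5′ to 3′ and ends at the base before the annotated gene, with matches to CCAAT or its reverse complement ATTGG and to the SRE in capitals.
SREBF2 chr22:41832855-41833104: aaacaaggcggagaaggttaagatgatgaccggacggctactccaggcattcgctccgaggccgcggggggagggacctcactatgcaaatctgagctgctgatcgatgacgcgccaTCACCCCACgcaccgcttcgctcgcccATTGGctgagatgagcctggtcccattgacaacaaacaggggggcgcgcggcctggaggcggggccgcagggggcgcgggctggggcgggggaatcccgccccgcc
INSIG1 chr7:155297628-155297775: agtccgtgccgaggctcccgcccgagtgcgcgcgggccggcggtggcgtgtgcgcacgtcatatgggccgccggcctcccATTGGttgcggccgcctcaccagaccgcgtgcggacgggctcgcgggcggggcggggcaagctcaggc
SCD chr10:100346983-100347232: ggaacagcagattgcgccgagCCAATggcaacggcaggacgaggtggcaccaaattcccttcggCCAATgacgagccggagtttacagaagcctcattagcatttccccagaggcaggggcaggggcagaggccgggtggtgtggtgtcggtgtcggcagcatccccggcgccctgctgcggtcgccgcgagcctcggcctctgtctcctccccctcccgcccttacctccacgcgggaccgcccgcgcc
MSMO1 chr4:165327419-165327666: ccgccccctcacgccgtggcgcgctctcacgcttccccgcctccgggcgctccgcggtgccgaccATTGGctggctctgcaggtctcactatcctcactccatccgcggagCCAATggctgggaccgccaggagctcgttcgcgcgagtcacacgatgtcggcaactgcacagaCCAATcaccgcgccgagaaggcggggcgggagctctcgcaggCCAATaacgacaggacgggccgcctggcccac
The *SREBF2* stretch holds 1 SRE match and 1 CCAAT match, that of *INSIG1* holds 1 CCAAT match, that of *SCD* holds 2 and that of *MSMO1* holds 4. A match describes the letters only, and no binding was measured.

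The libraries held an estimated 21.68 to 28.54 M reads, inferred from steps in the low TPM values. A member rested on at least 143 reads in every library (*INSIG2*), and the median over members and libraries was 1131 reads. 12 of 12 myeloid marker genes averaged 1 TPM or more in MV4-11 and 11 of 12 in THP1, where *MEIS1* did not, and none of the T cell or epithelial markers did in either line. 5 abundant noncoding RNAs took 39.6% to 60.1% of the TPM of a library, and TPM of all other genes shrink as that share grows. The third MV4-11 8 h library had the lowest share, 39.6%, against 51.9% and 50.9% in the other 8 h libraries of the line, and it stood apart in many member values. Its part in the results was not tested beyond the values given without it. Exons of *FADS1* and *FADS2* overlap on opposite strands, *FADS2* overlaps *FEN1* and *TM7SF2* overlaps *VPS51*. *FDPS*, *IDI1*, *CYP51A1*, *HSD17B7* and *SCD* have pseudogene copies, so the split of reads at these genes is uncertain.

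After 8 h of IACS, nearly all members lay below DMSO in both lines, and by 24 h most lay higher again, at or near the DMSO level. In MV4-11 how far they came back depended on how TPM were scaled. In THP1 the highest log2 fold changes at 24 h against 8 h were those of *INSIG1*, *FADS2*, *SCD*, *SQLE*, *STARD4*, *FADS1*, *MSMO1* and *IDI1*, in that order. The acetyl-CoA and fatty acid chain genes *ACLY*, *ACSS2*, *ACACA* and *FASN* stayed near their 8 h level. The lowest log2 fold change against DMSO was -0.69, that of *INSIG1* in THP1 at 8 h, and no member was called against DMSO by limma without a replicate block, with a call needing an adjusted p under 0.05 and a change beyond 1.5-fold. Of all genes tested, 0.0148% were called at 8 h and 0.0886% at 24 h in MV4-11, and 0.0144% at 8 h and 0.0431% at 24 h in THP1.

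**Figure D1:**
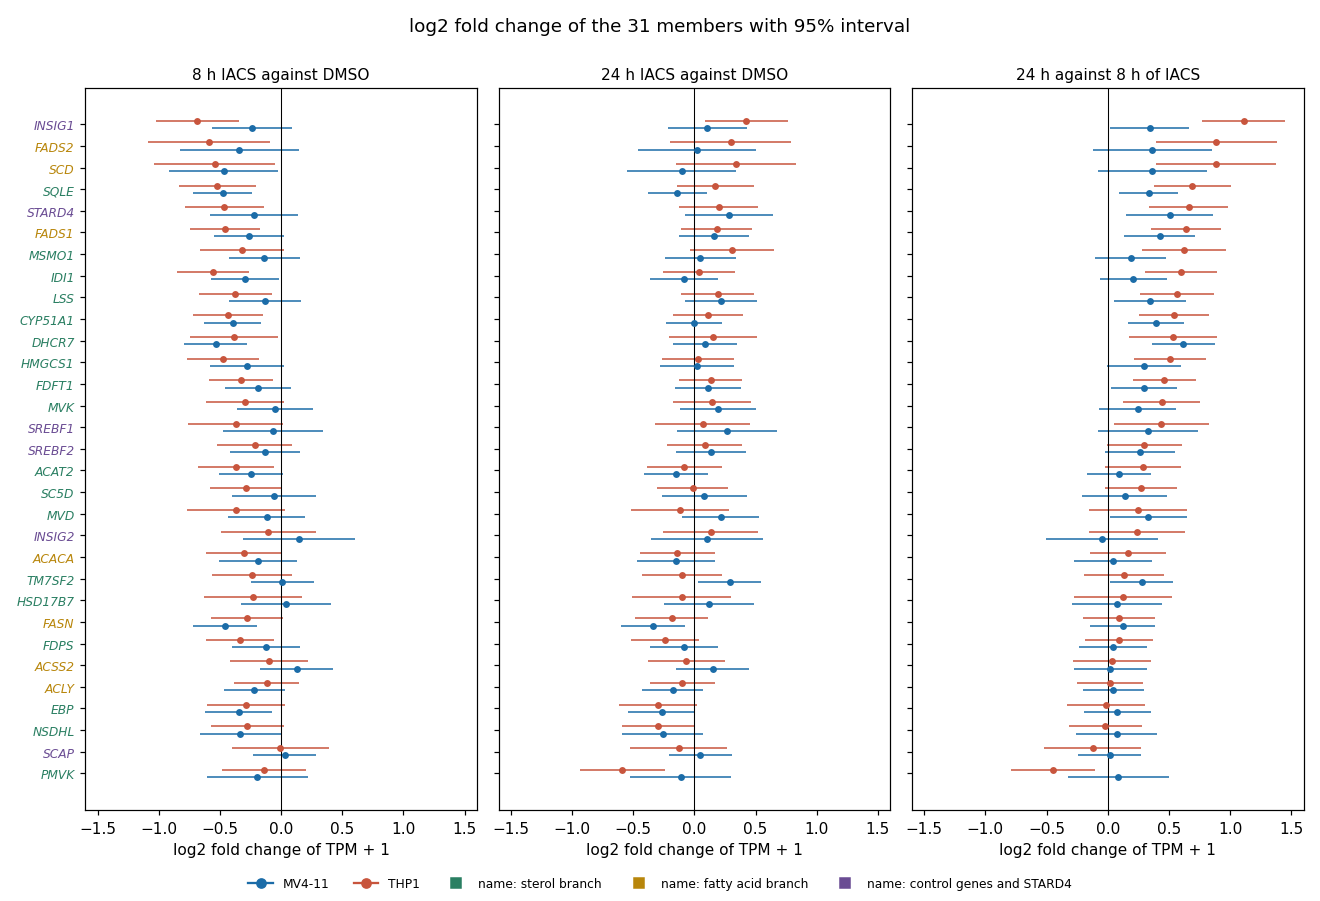
log2 fold changes of TPM + 1 for the 31 members (points) with 95% intervals from limma, in MV4-11 (blue) and THP1 (red), at 8 h and 24 h of IACS against DMSO and at 24 h against 8 h, sorted by the last comparison in THP1. Points lie left of 0 at 8 h in 26 members of MV4-11 and 31 of THP1, and right of 0 at 24 h against 8 h in 30 members of MV4-11 and 27 of THP1. The panels of a line share libraries.

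At 8 h the log2 fold change was below 0 for 26 of 31 members in MV4-11 and for 31 of 31 in THP1. Over all genes it was below 0 for 4485 of 13542 in MV4-11 and for 11643 of 13928 in THP1. The members' median was -0.20 in MV4-11 and -0.33 in THP1, against 0.061 and -0.12 over all genes, and with TPM rescaled by the median of ratios 29 and 27 members lay below 0. Limma's unadjusted p was under 0.05 for 8 members in MV4-11, all lower, where 0.997% of all genes were lower by that measure. In THP1 it was so for 14 members, all lower, against 1.86% of all genes. With median-of-ratios scaling the counts were 14 in MV4-11 (6.36% of all genes) and 7 in THP1 (3.67%). The count in MV4-11 was 13 without the third 8 h library, 4 without the first DMSO or the second 8 h library, 5 without the second DMSO or the first 8 h library, and 9 without the third DMSO library. In THP1 it was 8 without the first 8 h library and 10 to 19 without any other. All 3 IACS libraries lay below all 3 DMSO libraries for 5 members in MV4-11 (1.65% of all genes) and for 17 in THP1 (4.06%). *IDI1* is among the 5 in MV4-11, though its highest 8 h and lowest DMSO values both round to 37.66 TPM.

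The mevalonate steps make the isoprenoid units from which squalene is joined. *IDI1*, at chr10:1039152-1049119 (GRCh38, GENCODE 44, as for all genes here), makes the isomer of isopentenyl pyrophosphate on which chain growth starts. In MV4-11 *IDI1* was at 37.9, 37.7 and 38.2 TPM under DMSO, 27.96, 27.5 and 37.7 TPM at 8 h and 37.03, 35.96 and 34.2 TPM at 24 h, in order of replicate number. In THP1 it was at 30.1, 26.9 and 28.7 TPM under DMSO, 18.7, 21.6 and 17.2 TPM at 8 h and 28.4, 28.8 and 30.99 TPM at 24 h. The 3 THP1 libraries at 8 h lay below the other 6, whereas the third MV4-11 8 h library was at the DMSO level. The log2 fold change at 8 h was -0.30 in MV4-11 (95% interval -0.57 to -0.018) and -0.56 in THP1 (-0.85 to -0.27).

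*FDPS* (chr1:155308748-155320666), which joins these units to farnesyl pyrophosphate, stood at 78.2, 77.95 and 73.6 TPM under DMSO, 64.6, 65.3 and 81.9 TPM at 8 h and 68.8, 67.1 and 81.8 TPM at 24 h in MV4-11. In THP1 it stood at 123, 117 and 115 TPM under DMSO, 92.7, 105 and 84.4 TPM at 8 h and 101, 107 and 92.2 TPM at 24 h. All THP1 IACS libraries, at either time, lay below the THP1 DMSO libraries, while the MV4-11 groups overlapped. *PMVK* (chr1:154924740-154936719), which adds the second phosphate to mevalonate, was at 18.9, 27.1 and 24.9 TPM under DMSO, 15.1, 21.6 and 25.4 TPM at 8 h and 18.9, 21.2 and 25.03 TPM at 24 h in MV4-11. THP1 held 32.5, 32.3 and 29.8 TPM under DMSO, 30.2, 33.2 and 23.1 TPM at 8 h and 20.5, 23.2 and 18.4 TPM at 24 h of *PMVK*. The THP1 24 h libraries of *PMVK* lay below those under DMSO with no overlap. The other mevalonate genes were *ACAT2*, *HMGCS1*, *MVK* and *MVD*. At 8 h their log2 fold changes ran from -0.28 (*HMGCS1*, which makes HMG-CoA) to -0.047 (*MVK*, mevalonate kinase) in MV4-11. In THP1 they ran from -0.48 (*HMGCS1*) to -0.29 (*MVK*).

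From squalene onward, *SQLE* (chr8:124998497-125022283) encodes squalene epoxidase, a rate-limiting enzyme of the pathway. MV4-11 had 44.9, 43.1 and 43.5 TPM under DMSO, 30.01, 29.3 and 34.6 TPM at 8 h and 42.6, 40.3 and 36.3 TPM at 24 h of *SQLE*. THP1 had 53.2, 51.3 and 44.5 TPM under DMSO, 33.5, 40.5 and 29.5 TPM at 8 h and 55.9, 57.1 and 54.6 TPM at 24 h. In both lines the 8 h libraries, the third of MV4-11 included, lay below all DMSO and 24 h libraries. The 24 h libraries lay below DMSO in MV4-11 and above it in THP1, without overlap. At 8 h the log2 fold change was -0.48 in MV4-11 (-0.72 to -0.23) and -0.52 in THP1 (-0.84 to -0.21). *DHCR7* (chr11:71428193-71452868), which makes cholesterol from 7-dehydrocholesterol, was at 5.75, 5.63 and 4.97 TPM under DMSO, 3.47, 3.61 and 3.27 TPM at 8 h and 6.401, 5.68 and 5.44 TPM at 24 h in MV4-11. In THP1 *DHCR7* was at 7.79, 9.25 and 11.99 TPM under DMSO, 7.201, 6.29 and 7.86 TPM at 8 h and 10.7, 10.5 and 11.0 TPM at 24 h. In MV4-11 it had the lowest log2 fold change of all members at 8 h, -0.53 (-0.79 to -0.27). *CYP51A1*, the lanosterol demethylase, had its 8 h libraries below all others in both lines, with -0.40 in MV4-11 and -0.43 in THP1 at 8 h.

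*MSMO1* (chr4:165327667-165343164), a methyl sterol oxidase, was at 13.2, 11.1 and 10.4 TPM under DMSO, 9.58, 10.1 and 11.5 TPM at 8 h and 12.7, 13.04 and 10.2 TPM at 24 h in MV4-11. In THP1 *MSMO1* was at 14.5, 13.7 and 15.4 TPM under DMSO, 9.74, 12.9 and 11.8 TPM at 8 h and 18.8, 15.4 and 20.9 TPM at 24 h. Its groups overlapped throughout in MV4-11, whereas in THP1 the 8 h libraries lay below all others. *SC5D* (chr11:121292681-121313410), a sterol desaturase, was at 3.91, 3.43 and 3.36 TPM under DMSO, 2.69, 3.48 and 4.08 TPM at 8 h and 4.22, 4.27 and 3.06 TPM at 24 h in MV4-11. THP1 carried more *SC5D*, with 11.2, 10.2 and 10.6 TPM under DMSO, 7.899, 9.44 and 8.32 TPM at 8 h and 10.1, 10.4 and 11.04 TPM at 24 h. *NSDHL*, a sterol dehydrogenase, was at 22.4, 24.1 and 20.5 TPM under DMSO, 14.3, 16.4 and 22.8 TPM at 8 h and 17.6, 18.1 and 19.7 TPM at 24 h in MV4-11. The values of *NSDHL* in THP1 were 17.2, 16.5 and 16.8 TPM under DMSO, 13.5, 14.4 and 13.3 TPM at 8 h and 12.4, 15.6 and 12.8 TPM at 24 h. At 24 h it lay below DMSO without overlap in both lines, at -0.26 in MV4-11 and -0.30 in THP1, though neither passed limma's test (adjusted p = 0.524 and 0.578).

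*EBP*, the sterol isomerase, gave 47.1, 39.3 and 45.9 TPM under DMSO, 33.4, 30.9 and 39.4 TPM at 8 h and 35.8, 34.1 and 39.4 TPM at 24 h in MV4-11. In THP1 *EBP* gave 53.4, 55.8 and 45.4 TPM under DMSO, 41.5, 48.96 and 36.3 TPM at 8 h and 43.8, 41.95 and 39.05 TPM at 24 h. It too was lower at 24 h than under DMSO without overlap in THP1, and changed little between 8 h and 24 h. *HSD17B7*, a sterol reductase, had 4.801, 3.68 and 3.58 TPM under DMSO, 3.19, 3.99 and 5.49 TPM at 8 h and 4.78, 4.32 and 4.15 TPM at 24 h in MV4-11. In THP1 *HSD17B7* had 7.62, 6.06 and 5.601 TPM under DMSO, 4.65, 7.08 and 4.48 TPM at 8 h and 6.09, 6.36 and 5.195 TPM at 24 h. *TM7SF2*, a sterol reductase whose exons overlap *VPS51*, had 9.54, 10.2 and 7.85 TPM under DMSO, 8.78, 9.78 and 9.12 TPM at 8 h and 11.5, 11.2 and 11.6 TPM at 24 h in MV4-11. THP1 had 7.99, 7.803 and 6.66 TPM under DMSO, 5.88, 6.84 and 5.903 TPM at 8 h and 6.93, 7.83 and 6.05 TPM at 24 h of *TM7SF2*. Its MV4-11 24 h libraries lay above all other libraries of the line. *FDFT1*, which makes squalene, and *LSS*, which closes the sterol rings, were at -0.33 and -0.37 in THP1 at 8 h, and at -0.19 and -0.13 in MV4-11.

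In the fatty acid branch, *FASN* encodes fatty acid synthase. It was at 135, 164 and 127 TPM under DMSO, 97.96, 100.4 and 109 TPM at 8 h and 111, 109.8 and 113 TPM at 24 h in MV4-11. In THP1 *FASN* was at 153, 180.0 and 173 TPM under DMSO, 135, 151 and 129.7 TPM at 8 h and 141, 171 and 133 TPM at 24 h. In MV4-11 all IACS libraries, at either time, lay below DMSO, with log2 fold changes of -0.46 at 8 h (-0.72 to -0.20) and -0.34 at 24 h (-0.60 to -0.075). *ACACA* (chr17:37084992-37406836), the carboxylase that makes malonyl-CoA, was at 23.2, 22.6 and 16.6 TPM under DMSO, 16.97, 18.04 and 18.9 TPM at 8 h and 20.1, 20.02 and 15.6 TPM at 24 h in MV4-11. In THP1 *ACACA* was at 35.5, 35.1 and 31.1 TPM under DMSO, 26.5, 30.6 and 24.9 TPM at 8 h and 31.4, 33.6 and 27.3 TPM at 24 h. *ACSS2*, which makes acetyl-CoA from acetate, was at 11.5, 12.7 and 11.9 TPM under DMSO, 11.99, 11.6 and 16.4 TPM at 8 h and 12.7, 12.8 and 14.8 TPM at 24 h in MV4-11. THP1 *ACSS2* was at 15.6, 14.1 and 13.4 TPM under DMSO, 12.9, 15.4 and 11.9 TPM at 8 h and 13.6, 14.8 and 12.7 TPM at 24 h, and the 3 groups overlapped. *ACLY*, which makes acetyl-CoA from citrate, gave -0.22 at 8 h and -0.18 at 24 h in MV4-11, and -0.12 and -0.10 in THP1.

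The desaturases put double bonds into fatty acids, *SCD* into saturated chains and *FADS1* and *FADS2* into polyunsaturated ones. *SCD* (chr10:100347233-100364826) was at 70.6, 67.9 and 46.2 TPM under DMSO, 46.5, 44.9 and 39.3 TPM at 8 h and 65.5, 67.2 and 40.4 TPM at 24 h in MV4-11. In THP1 *SCD* was at 94.7, 100.4 and 158 TPM under DMSO, 70.7, 65.02 and 104 TPM at 8 h and 129.6, 133 and 177 TPM at 24 h. The third replicate was the lowest of each group in MV4-11 and the highest of each group in THP1, so groups overlapped against DMSO although each replicate number showed the same order of 8 h below DMSO. *FADS1* (chr11:61799627-61829318) was at 28.1, 26.9 and 20.2 TPM under DMSO, 20.3, 20.1 and 21.2 TPM at 8 h and 30.2, 27.8 and 25.7 TPM at 24 h in MV4-11. In THP1 *FADS1* was at 35.6, 34.8 and 42.0 TPM under DMSO, 25.1, 27.2 and 28.6 TPM at 8 h and 41.99, 40.97 and 44.6 TPM at 24 h. Its 24 h libraries lay above its 8 h libraries in both lines. *FADS2* (chr11:61792980-61867354) was at 18.1, 20.2 and 10.6 TPM under DMSO, 13.0, 13.1 and 10.8 TPM at 8 h and 18.9, 18.2 and 11.9 TPM at 24 h in MV4-11. In THP1 *FADS2* was at 13.96, 17.6 and 26.7 TPM under DMSO, 11.3, 9.87 and 15.9 TPM at 8 h and 20.99, 23.0 and 26.1 TPM at 24 h. At 8 h in THP1 the log2 fold changes were -0.54 for *SCD* (-1.03 to -0.052), -0.46 for *FADS1* (-0.74 to -0.17) and -0.59 for *FADS2* (-1.08 to -0.095).

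Among the control genes, *INSIG1* (chr7:155297776-155310235) had the lowest log2 fold change of all members in THP1 at 8 h, -0.69 (-1.02 to -0.35), with adjusted p = 0.941 in limma. It was at 41.9, 42.7 and 52.7 TPM under DMSO, 26.5, 26.4 and 31.1 TPM at 8 h and 57.1, 55.5 and 73.2 TPM at 24 h in THP1. The THP1 8 h libraries lay below, and the 24 h libraries above, all DMSO libraries. In MV4-11 *INSIG1* was at 47.2, 47.1 and 41.6 TPM under DMSO, 37.1, 34.9 and 42.98 TPM at 8 h and 56.9, 52.6 and 38.7 TPM at 24 h, and the groups overlapped. *SREBF1* (chr17:17810399-17837002) was at 17.4, 18.9 and 11.4 TPM under DMSO, 14.9, 16.2 and 13.4 TPM at 8 h and 21.7, 20.7 and 14.9 TPM at 24 h in MV4-11. In THP1 *SREBF1* was at 18.3, 22.2 and 26.5 TPM under DMSO, 15.9, 14.3 and 21.1 TPM at 8 h and 22.6, 25.7 and 21.6 TPM at 24 h. *SREBF2* (chr22:41833105-41907306) was at 60.7, 63.4 and 50.2 TPM under DMSO, 47.9, 53.5 and 57.4 TPM at 8 h and 67.2, 68.4 and 56.1 TPM at 24 h in MV4-11. In THP1 *SREBF2* was at 49.4, 58.3 and 62.2 TPM under DMSO, 45.6, 46.9 and 53.0 TPM at 8 h and 58.1, 66.5 and 55.2 TPM at 24 h. For both SREBP genes the 24 h libraries of THP1 lay above its 8 h libraries, and neither differed from DMSO at 8 h or 24 h without overlap in either line.

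*SCAP* and *INSIG2*, the other genes of sterol sensing, moved little. *SCAP* was at 34.8, 37.8 and 34.9 TPM under DMSO, 33.8, 34.0 and 42.6 TPM at 8 h and 36.9, 35.2 and 39.2 TPM at 24 h in MV4-11. THP1 *SCAP* was at 32.5, 34.97 and 26.9 TPM under DMSO, 31.4, 36.8 and 26.1 TPM at 8 h and 30.2, 33.7 and 22.8 TPM at 24 h. *INSIG2* was at 6.003, 4.96 and 4.48 TPM under DMSO, 5.28, 6.298 and 5.78 TPM at 8 h and 7.12, 6.92 and 3.401 TPM at 24 h in MV4-11, and at 5.24, 5.63 and 4.002 TPM under DMSO, 4.096, 5.87 and 3.74 TPM at 8 h and 5.84, 5.49 and 5.15 TPM at 24 h in THP1. Their log2 fold changes at 8 h were 0.030 and 0.15 in MV4-11 and -0.0076 and -0.11 in THP1. *STARD4* (chr5:111496033-111512590), which carries cholesterol between membranes, was at 5.33, 4.596 and 4.38 TPM under DMSO, 3.64, 3.67 and 4.52 TPM at 8 h and 7.52, 6.29 and 4.51 TPM at 24 h in MV4-11. In THP1 *STARD4* was at 20.1, 16.6 and 16.8 TPM under DMSO, 11.5, 14.6 and 12.01 TPM at 8 h and 19.6, 19.7 and 22.4 TPM at 24 h. The 8 h libraries of THP1 lay below all other THP1 libraries for *STARD4*, as they did for 13 of the 31 members, where 1.36% of all genes did so. In MV4-11 it was 4 members, *SQLE*, *CYP51A1*, *DHCR7* and *FASN*, against 0.207% of all genes.

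**Figure D2:**
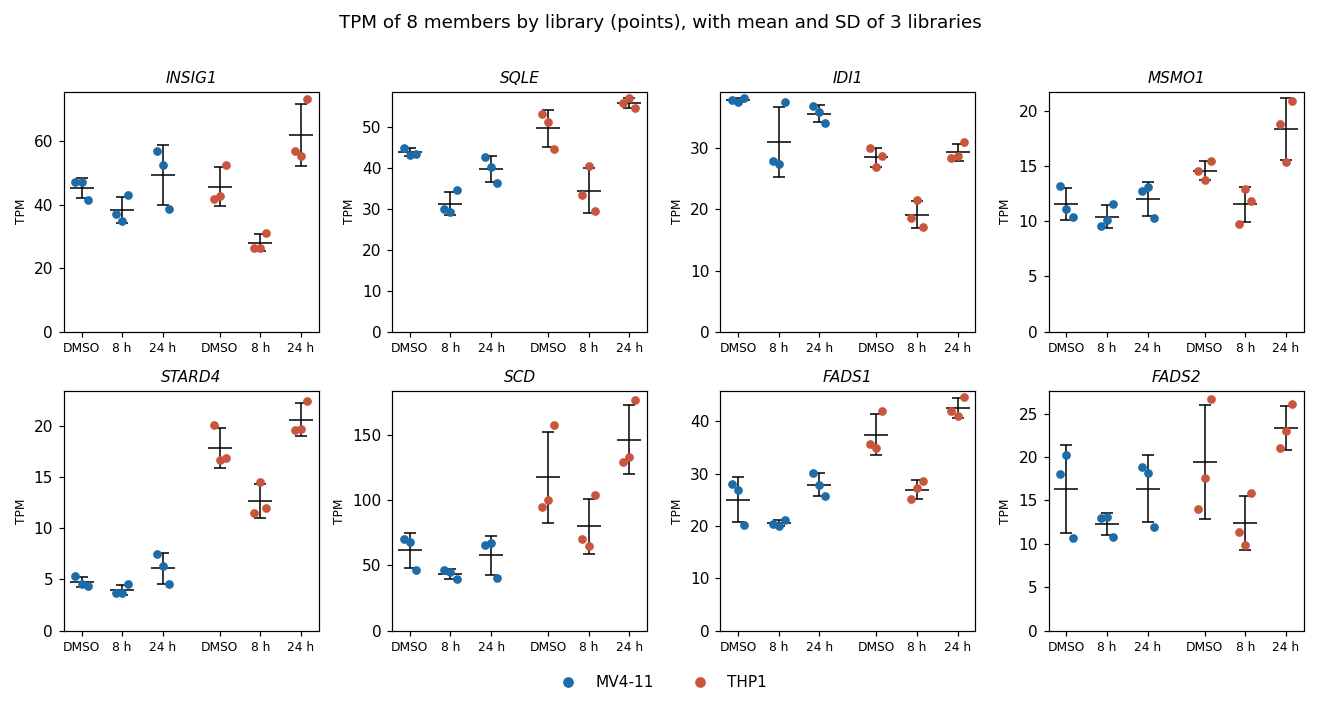
TPM (linear axes from 0) of the 8 members that rose between 8 h and 24 h of IACS in THP1 with the replicate block, by group, with 1 point per library in order of replicate number and a black bar for the mean with SD of 3 libraries. In THP1 (red) the 8 h points lie below the 24 h points in all 8 panels, while in MV4-11 (blue) they overlap in all but *SQLE* and *FADS1*.

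Against DMSO at 24 h, members lay on both sides of 0. The members' median log2 fold change was 0.048 in MV4-11 and 0.040 in THP1, against 0.077 and -0.12 over all genes, and 19 and 17 of the 31 members lay above 0. With median-of-ratios scaling 15 members of MV4-11 and 25 of THP1 lay above 0. Limma's unadjusted p was under 0.05 for 1 higher member in MV4-11, *TM7SF2* at 0.29 (9.66% of all genes were higher by that measure), and 1 lower, *FASN* (2.36%). In THP1 it was so for *INSIG1*, higher at 0.43 (1.49% of all genes), and *PMVK*, lower at -0.59 (7.12%). With median-of-ratios scaling 7 members were lower in MV4-11 by that measure (10.8% of all genes) and 0 higher (10.1%), the lower ones being *ACAT2*, *IDI1*, *SQLE*, *NSDHL*, *EBP*, *ACLY* and *FASN*. In THP1 5 were then higher (10.9%), *MVK*, *SQLE*, *LSS*, *INSIG2* and *STARD4*, and *PMVK* alone lower (12.6%). The 24 h libraries did not overlap DMSO for 4 higher members (19.4% of all genes) and 5 lower (5.26%) in MV4-11, and for 5 higher (3.32%) and 4 lower (10.2%) in THP1. Same-numbered DMSO and 24 h libraries of THP1 varied together, and blocking on that number *PMVK* fell (adjusted p = 0.00518 in limma, 0.402 without the block). 2.13% of all genes were called with that block. *INSIG1* then had an adjusted p of 0.0101 but missed the fold threshold.

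Between 8 h and 24 h of IACS, which compares the treated libraries with each other, most members lay higher at 24 h. With no DMSO group for each time, longer treatment and longer culture cannot be told apart here. The comparison shares its 8 h libraries with that of 8 h against DMSO, so a low 8 h library enters both. In THP1 27 of 31 members lay above 0, with a median of 0.30 against 0.0070 over all genes. In MV4-11 30 of 31 did, with a median of 0.24 against 0.017. Limma's unadjusted p was under 0.05 for 15 higher members and 1 lower (*PMVK*) in THP1, where 2.69% of all genes were higher, and for 10 higher members and 0 lower in MV4-11, where 1.53% were. With median-of-ratios scaling these counts were 18 in THP1 (9.93% of all genes) and 13 in MV4-11 (3.17%). The count in THP1 was 14 to 18 without any 1 library. In MV4-11 it was 15 without the third 8 h library, 13 without the third 24 h library 3 without the first 24 h library and 5 without any of the other 3. All 24 h libraries lay above all 8 h libraries for 18 members in THP1 (5.11% of all genes) and 6 in MV4-11 (2.23%), among which *SQLE*, *CYP51A1*, *DHCR7* and *FADS1* did so in both lines.

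No member was called at 24 h against 8 h without a block, where 0.00718% of all genes were called in THP1 and 0% in MV4-11. *INSIG1* came nearest, with a log2 fold change of 1.11 in THP1 (0.77 to 1.45, 2.16-fold) and adjusted p = 0.0576. The 8 h and 24 h libraries of THP1 that carry the same number deviated together over all genes. With that number as a block, 8 of the 31 members rose, *INSIG1*, *SCD*, *FADS1*, *SQLE*, *FADS2*, *IDI1*, *STARD4* and *MSMO1*, where 0.818% of all genes were called in either direction. The adjusted p from limma with the block was 0.000145 for *INSIG1*, 0.00144 for *SCD*, 0.0046 for *FADS1*, 0.0049 for *SQLE* and 0.00537 for *FADS2*. It was 0.0143 for *IDI1*, 0.0196 for *STARD4* and 0.0238 for *MSMO1*. Without a block but with median-of-ratios scaling, *SQLE*, *STARD4* and *IDI1* passed, where 0.481% of all genes did.

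The ratio of the 24 h to the 8 h TPM within a replicate number shows what the block sees. For *INSIG1* it was 2.15, 2.11 and 2.35 in THP1, and for *SQLE* 1.67, 1.41 and 1.85. For *SCD* it was 1.83, 2.05 and 1.699, for *FADS1* 1.67, 1.51 and 1.56 and for *FADS2* 1.85, 2.33 and 1.64. *SCD* thus differed more in level between replicates than in this ratio. The ratio was 1.52, 1.33 and 1.81 for *IDI1*, 1.71, 1.35 and 1.87 for *STARD4* and 1.93, 1.19 and 1.76 for *MSMO1*, the second replicate being the lowest of the 3 each time. It was above 1 in all 3 pairs for 23 of 31 members in THP1, against 21.3% of all genes, and for 12 in MV4-11, against 9.72%. In MV4-11 the first and second pairs gave 1.53 and 1.51 for *INSIG1*, and the third gave 0.901. When each of the 6 THP1 libraries was left out in turn with the block kept, 5 to 10 members were called, and *INSIG1*, *SCD*, *FADS1*, *FADS2* and *SQLE* were called each time. The lowest count was that without the third 8 h library. The shares of all genes called in these fits are not given here.

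Within the fatty acid branch the desaturases and the other genes parted at 24 h against 8 h. At 8 h the median log2 fold change was -0.19 over the 18 sterol genes and -0.26 over the 7 fatty acid genes in MV4-11, and -0.33 and -0.30 in THP1. At 24 h against 8 h it was 0.23 and 0.12 in MV4-11, and 0.36 and 0.17 in THP1. The 3 desaturases had medians of 0.37 in MV4-11 and 0.88 in THP1 there, while *ACLY*, *ACSS2*, *ACACA* and *FASN* had 0.042 and 0.064 and lay between 0.019 and 0.17 in both lines. The 11 genes from squalene onward had medians of 0.28 and 0.46, and the 7 mevalonate genes 0.21 and 0.29. Within the sterol branch *EBP*, *NSDHL*, *FDPS* and *HSD17B7* stayed near 0, with log2 fold changes of -0.013, -0.020, 0.090 and 0.12 in THP1. The medians rest on few genes and were not tested against each other.

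As a share of the TPM outside the 5 noncoding RNAs, which removes the effect of that share on the values, the sterol branch was lower at 8 h in every library of both lines. Per 1000 TPM the 18 sterol genes together held 0.896, 0.881 and 0.898 under DMSO, 0.735, 0.742 and 0.752 at 8 h and 0.876, 0.848 and 0.7896 at 24 h in MV4-11. In THP1 they held 1.01, 1.03 and 1.15, then 0.878, 0.879 and 0.917, then 1.11, 1.05 and 1.23. The 8 h libraries did not overlap the DMSO or 24 h libraries in either line. In MV4-11 all 24 h libraries also lay below all DMSO libraries, whereas in THP1 those groups overlapped. On this scale the third MV4-11 8 h library lay with the other 2 of its group. *ACLY*, *ACSS2*, *ACACA* and *FASN* together went from 0.586, 0.662 and 0.561 to 0.4999, 0.4903 and 0.456 and then 0.507, 0.506 and 0.467 in MV4-11, with no return by 24 h. In THP1 they were at 0.697, 0.787 and 0.8499, 0.723, 0.697 and 0.763 and 0.753, 0.788 and 0.792, with overlap between DMSO and both times. The 3 desaturases were at 0.269, 0.303 and 0.513, 0.235, 0.197 and 0.372 and 0.423, 0.406 and 0.621 in THP1. In MV4-11 they were at 0.223, 0.218 and 0.153, 0.166, 0.159 and 0.118 and 0.2195, 0.217 and 0.137. A sum is set mostly by the genes with most TPM.

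**Figure D3:**
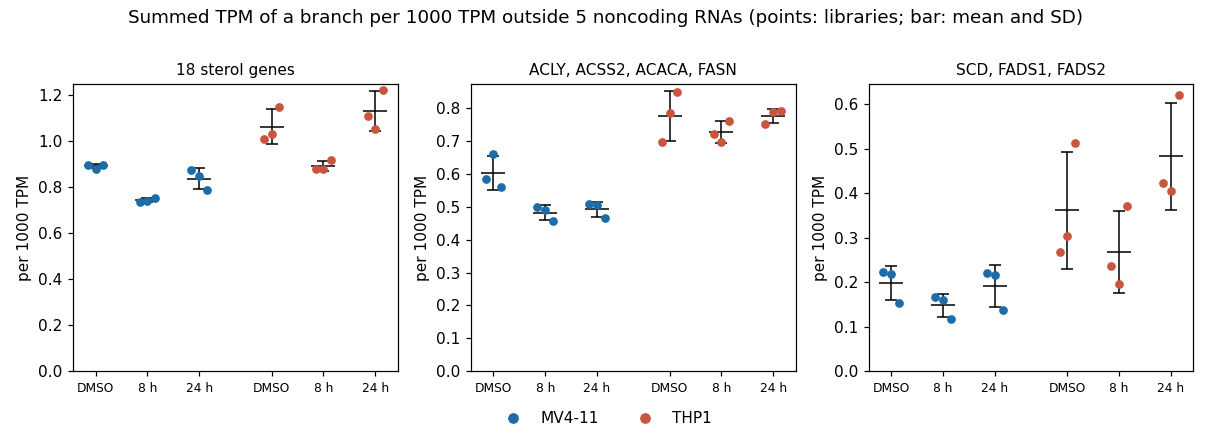
Summed TPM per 1000 TPM outside 5 noncoding RNAs (linear axes from 0) for 18 sterol genes, for *ACLY*, *ACSS2*, *ACACA* and *FASN*, and for the 3 desaturases, with 1 point per library and a black bar for the mean with SD of 3 libraries. The sterol sum dips at 8 h in both lines, the second sum stays low at 24 h in MV4-11, and the desaturase sum is spread most widely in THP1.

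Under DMSO the lines differed in the resting level of several members. 6 members were higher in THP1 than in MV4-11 and none lower by limma in 1 fit of all 18 libraries, where 36.9% of all genes were called, so the members' share was below that of all genes. *STARD4* was 3.26-fold higher (log2 fold change 1.71, adjusted p = 2.0e-08) and *SC5D* 2.55-fold (1.35, adjusted p = 1.2e-07). *SCD* was at 0.91 (adjusted p = 0.00333), *DHCR7* at 0.71 (0.000227), *ACACA* at 0.69 (0.00045) and *FDPS* at 0.62 (0.000322). No DMSO library of THP1 overlapped one of MV4-11 for these 6. Such a gap was common, with THP1 above MV4-11 for 14 of 31 members and 4213 of 14117 genes. THP1 lay below MV4-11 without overlap for 4 members and 4368 genes. *DHCR7* was no longer called without the third THP1 DMSO library (log2 fold change 0.56), and *ACACA* without the third MV4-11 DMSO library (0.55). With no fold threshold 12 members passed, 10 higher and 2 lower, the lower ones being *IDI1* at -0.40 and *NSDHL* at -0.39. At least 36.9% of all genes pass that looser measure, so the members' count is not shown to exceed that of all genes. All 7 fatty acid genes lay above 0, from 0.24 to 0.91, whereas the 18 sterol genes ran from -0.40 to 1.35.

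**Figure D4:**
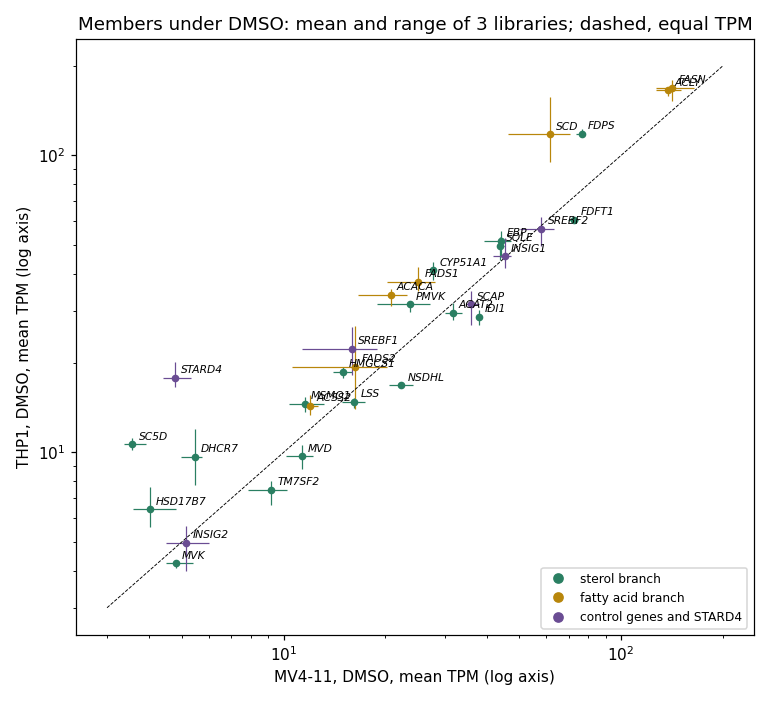
Mean TPM of the 31 members under DMSO in MV4-11 (x) and THP1 (y), both on log axes, with bars for the range of 3 libraries, the dashed line marking equal TPM. *STARD4*, *SC5D*, *DHCR7* and *SCD* lie farthest above the line, and *NSDHL* and *IDI1* below it.

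Without a block, the response to IACS was not shown to differ between the lines for any member. At 8 h the THP1 response minus the MV4-11 response had a median of -0.19 over the members against -0.17 over all genes, and no member was called or had an unadjusted p under 0.05 in limma (0.00708% of all genes were called). For *INSIG1* the difference was -0.45 (-0.90 to 0.0067) and for *SCD* -0.074 (-0.77 to 0.62), and the intervals reach that far. At 24 h no member was called either (0.00708% of all genes), and 1 had an unadjusted p under 0.05, *TM7SF2*, at -0.39 (-0.76 to -0.016, adjusted p = 0.691). *SCD* was at 0.44 (-0.25 to 1.14), and was called only with the replicate block and median-of-ratios scaling together, at 0.67 (adjusted p = 0.0334).

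Members ranked alike in the 2 lines, whose libraries are separate. Across the 31 members the log2 fold change at 24 h against 8 h in MV4-11 and that in THP1 had Pearson's r = 0.714 and Spearman's rho = 0.806, and over the 12555 genes tested in both lines r = 0.0489 and rho = 0.15. At 8 h against DMSO the members' r was 0.603 and that of all genes 0.168, and at 24 h against DMSO they were 0.442 and 0.312. The members of a line share its libraries, and genes are not independent replicates, so these values are descriptions. *INSIG1*, *SCD*, *FADS2* and *STARD4* were toward the top in both lines at 24 h against 8 h. *DHCR7* had the highest value in MV4-11, 0.62, and 0.54 in THP1, and *PMVK* lay apart with 0.085 in MV4-11 and -0.45 in THP1.

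**Figure D5:**
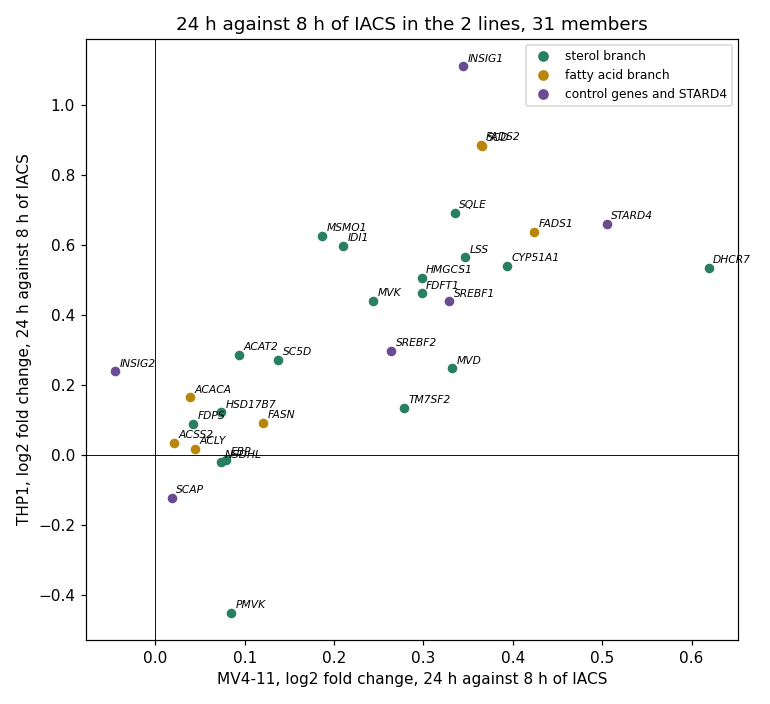
log2 fold change of TPM + 1 at 24 h against 8 h of IACS in MV4-11 (x) and THP1 (y) for the 31 members, 1 point per gene, coloured by branch. Points run from *SCAP*, *EBP* and *NSDHL* near 0 up to *INSIG1*, *SCD*, *FADS2* and *STARD4*, with *PMVK* below 0 in THP1.

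Genes around the pathway were counted from lists written by role. Without a block none of them was called in a comparison of treatment or time. Of 12 further genes of sterol synthesis, uptake and transport, 10 were tested in each line. Their medians at 8 h were -0.10 in MV4-11 and -0.20 in THP1. At 24 h against 8 h they were 0.16 and 0.052.

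Of 12 genes for the processing and turnover of SREBP, SCAP and INSIG, such as the protease gene *MBTPS1*, 12 were tested. Their median at 24 h against 8 h was -0.013 in MV4-11 and -0.0097 in THP1. Of 11 genes for sterol efflux and storage 9 were tested, with medians of 0.10 and 0.073. Of 23 further fatty acid and lipid genes, 20 were tested in MV4-11 and 21 in THP1. At an unadjusted p under 0.05 in limma, none of the first 2 lists passed in a comparison of treatment or time. Of the fatty acid genes *FADS3* was higher at 8 h and *PNPLA3*, *ACACB* and *MID1IP1* at 24 h in MV4-11, while *ACSL3* was lower at 8 h and *AGPAT2*, *ACSL5* and *TECR* at 24 h in THP1. By that measure 9.66% of all genes were higher at 24 h in MV4-11, and the share higher at 8 h in that line is not given here. In THP1 1.86% were lower at 8 h and 7.12% at 24 h. *ELOVL5* was higher in MV4-11 at 24 h against 8 h, where 1.53% of all genes were. In that comparison *PNPLA3*, a lipase and acyltransferase, was at 0.55 and *ACSL3*, an acyl-CoA synthetase, at 0.37 in THP1, neither past limma's test (adjusted p = 0.635 and 0.741). Between the lines under DMSO these lists held larger differences than the members. Higher in THP1 were, among fatty acid genes, *ME1*, which makes NADPH, at 3.497, the elongases *ELOVL1* and *ELOVL5* at 2.21 and 1.52, the desaturase *SCD5* at 2.08, *ACSL5* and *ACSL3* at 1.90 and 0.97, *HSD17B12* at 1.23, *ACACB* at 0.94 and *PNPLA3* at 0.93. *ACSL1* and *HACD3* were lower, at -1.18 and -0.83. Of the efflux and storage genes, *ABCA1*, which exports cholesterol, was at 3.399, *PLTP* at 2.16, *SOAT1*, which esterifies cholesterol, at 1.35 and *NR1H3* at 1.05, while *NR1H2* and *MYLIP* were lower, at -1.18 and -0.60. *RNF145* was at 0.77, *NPC2*, a lysosomal cholesterol carrier, at 1.26, *GGPS1* at 1.13 and *TMEM97* at -0.74.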

How the data were processed

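RNA sequencing covered 18 libraries, 3 for each of 6 groups, which the methods describe as independent replicates. The deposited table holds TPM for 45372 symbols, which the authors made from paired-end TruSeq libraries aligned to GRCh38 and quantified with CLC Genomics Workbench v20. Which annotation release was used, and whether strand was, is not given in the sources used here. 0 columns were left out. TPM fix each library's total, so depth is lost. It was estimated from steps of whole reads in low values with exon lengths of GENCODE 44 (tolerance 0.02, 75.5% to 76.9% of values whole), and, since only part came out whole, no count test was run.

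From TPM, log2(TPM + 1) was tested by limma 3.58.1 (R 4.3.3, lmFit and eBayes with trend, two-sided), in 9 libraries per line, or in 18 for differences between lines, keeping genes that averaged 1 TPM or more. Fold changes are on that scale, which understates low genes. Calls needed a Benjamini-Hochberg adjusted p under 0.05 over all genes tested and a log2 fold change beyond 0.585. With 3 libraries per group an exact rank or permutation test could not go below 0.1. Calls on simulated data with known changes were checked. Intervals are 95% intervals from limma.

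Replicate numbers were taken to pair libraries where all 3 same-number correlations of deviations from group means, over all genes, passed 0.1. This held for THP1 8 h with 24 h (lowest 0.183), THP1 DMSO with 24 h (0.146) and MV4-11 8 h with 24 h (0.11, and 0.0903 after median-of-ratios scaling). Libraries with different numbers reached 0.149, 0.0998 and 0.387 in the same order, so in MV4-11 the number did not set pairs apart. The block was fitted over all 9 libraries of a line. It thus also spanned THP1 DMSO with 8 h, which did not pass (lowest 0.044). The labels give a number only.

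The members and gene lists were chosen with earlier results of these data known. Members named with values in every library are those called, with or without the block where numbers pair, the 3 highest and 3 lowest against DMSO per line and time, *INSIG1*, *SREBF1* and *SREBF2*. Listed genes outside the members are given as counts, with values for those called. Listed genes named at an unadjusted p, such as *PNPLA3*, were named after their values were seen. Results for some listed genes are not reported here. The marker lists of B cells and erythroid cells had at most 1 gene at 1 TPM in a line.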

Additional observations from a re-analysis of the deposited data

How the results depend on the processing

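Counts of called members were recomputed with 0.1 added in place of 1, without a filter on low values or with one at 10 TPM, after median-of-ratios scaling or removal of 5 noncoding RNAs, with a replicate block, no variance trend, only the 6 libraries compared, other thresholds, and each library left out in turn. No called member changed direction. Among values that were not called, median-of-ratios scaling turned the sign for 3 and 4 of 31 members at 8 h and 24 h against DMSO in MV4-11, 4 and 8 in THP1, 2 at 24 h against 8 h in MV4-11 and 0 in THP1, and for 10 and 11 of the differences in response at 8 h and 24 h. Without an adjustment or fold threshold limma gave 8, 2, 14 and 2 members for MV4-11 at 8 h and 24 h and THP1 at 8 h and 24 h against DMSO, 10 and 16 for 24 h against 8 h in MV4-11 and THP1, 18 between the lines under DMSO, and 1 for the difference in response at 24 h. With the adjustment kept and no fold threshold 12 passed between the lines, where at least 36.9% of all genes did. At least that share also passes without the adjustment, so the count of 18 is not shown to exceed that of all genes. For the difference in response the share of all genes at an unadjusted p is not given here. For THP1 at 24 h against 8 h the count of 0 became 1 with the filter at 10 TPM, 1 with only the 6 libraries compared, 3 with median-of-ratios scaling, 4 without the 5 noncoding RNAs, and 8 with the replicate block, alone or with that scaling. The count was 0 to 1 with a library left out. Calls over all genes rose too, from 0.00718% to 0.481% with median-of-ratios scaling and 0.818% with the block alone. For the other settings the share of all genes is not given here, so those counts are not set against all genes.

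The replicate block gave 1 call in THP1 at 8 h (*INSIG1*, adjusted p = 0.00723 in limma), where the numbers do not pair the libraries, and 1 at 24 h (*PMVK*). Of all genes 2.13% were called with the block at 24 h. At 8 h that share is not given here, so the 8 h call is not set against all genes. With the block and median-of-ratios scaling 1 member, *SCD*, differed in response at 24 h. The block changed no other count of calls, and it could not be fitted between the lines. With the block, 5 to 10 members were called in THP1 at 24 h against 8 h when a library was left out, with no share of all genes given for those fits.

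Further alternatives for the counts at an unadjusted p under 0.05, and library removal with the block, were chosen after seeing the data. The counts became 14 (MV4-11) and 7 (THP1) at 8 h with median-of-ratios scaling and 24 in THP1 with the block. For the count with the block the share of all genes is not given here, and the numbers do not pair THP1 DMSO with 8 h. How far that count exceeds the share of all genes is thus not shown. At 24 h against DMSO they became 7 and 6 with that scaling. With a library left out they were 4 to 13 in MV4-11 and 8 to 19 in THP1 at 8 h, and 3 to 15 and 14 to 18 at 24 h against 8 h. In THP1 at 8 h the lowest came without the first 8 h library.

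The sterol median, less that of all genes, at 24 h against DMSO was -0.043 in MV4-11 and 0.12 in THP1. It became 0.014 and 0.012 with no filter, -0.13 and 0.19 with the filter at 10 TPM, and ranged over -0.076 to 0.013 and 0.036 to 0.23 with a library left out, so its sign in MV4-11 depends on these choices. In THP1 at 24 h against 8 h it was 0.36, and 0.51 with the filter at 10 TPM. The fatty acid median of THP1 became -0.060 at 24 h with no filter (0.051 as reported) and ranged over -0.30 to -0.096 at 8 h with a library left out. The causes were not tested.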
